A study of Mus musculus with 5 samples.

Results

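The 9 genes described here encode enzymes that turn squalene into cholesterol: Sqle, Lss, Cyp51, Tm7sf2, Nsdhl, Hsd17b7, Ebp, Sc5d and Dhcr7. They were chosen by gene symbol, as single-symbol probe sets of an Affymetrix mouse gene array, and all 9 were found among the 19938 genes measured, each with 1 probe set. RNA came from the livers of male mice about 10 months old. The 3 samples called Hdac3-null tumours here were liver tumour tissue of mice with a floxed and a null Hdac3 allele and Cre (Hdac3FL/-; AlbCre+). The 2 control livers were normal tissue of mice carrying 1 floxed and 1 wild-type allele and the same Cre (Hdac3FL/+; AlbCre+). AlbCre is Cre recombinase under the albumin promoter, which is active in hepatocytes, so other liver cells are expected to keep Hdac3 and control hepatocytes keep 1 working allele. Hdac3 encodes a histone deacetylase of nuclear corepressor complexes. All null samples were tumours and all controls were normal tissue, so loss of Hdac3 and tumour growth cannot be told apart.

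Cholesterol synthesis has an early part, in which acetyl units are built into squalene, and a late part, in which squalene is oxidised, closed into the ring system of lanosterol and trimmed to cholesterol. The late part runs on the membrane of the endoplasmic reticulum. Liver is a main site of the pathway, whose genes are classical targets of the transcription factor SREBP2. SREBP2 is held in the membrane by Scap and Insig proteins while sterols are plentiful and released when they are scarce.

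In the tumours 7 of the 9 post-squalene genes fell, 0 rose and 2 did not pass the test. The fall was deepest at Ebp, to 18.1% of the control level, and at Tm7sf2, to 20.1%. It was shallow at Sc5d, with 66.3% of the control level, and at Hsd17b7, with 57.9%. Sqle, the entry into the late pathway, stood at 140% of control and Lss at 64.6%, and neither passed. Among all genes tested, 4.96% were called fallen and 5.6% risen by limma at a threshold of 0.05 on the adjusted p. That was 1117 rises and 989 falls, or 949 rises and 1275 falls after a shift of every array to the same median. The median log2 change was −1.22 over the 9 genes and −0.02 over all genes. The falls rest on both controls: without control 1 or without control 2, Tm7sf2 alone of the 9 stayed called (adjusted p = 0.0468 and 0.0446), while 0.266% and 0.231% of all genes were then called fallen. Without tumour 2, 4 of the 9 were called fallen (Tm7sf2, Nsdhl, Ebp and Dhcr7), against 2.82% of all genes.

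**Figure D1:**
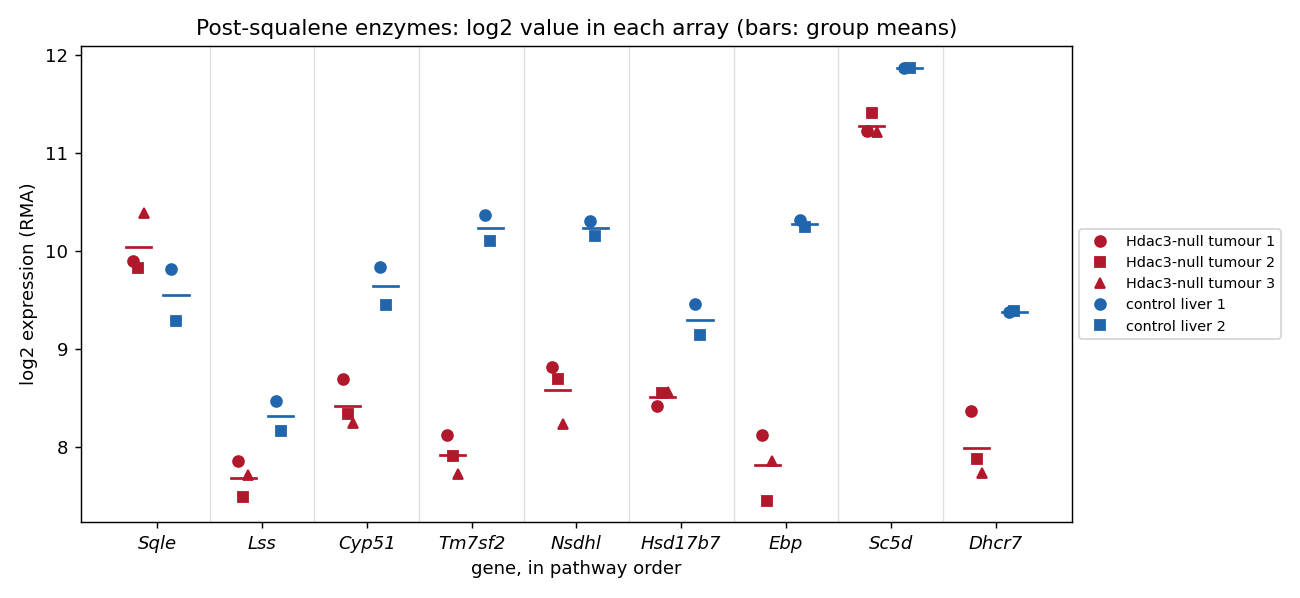
Log2 expression (vertical axis) of the 9 genes in pathway order (horizontal axis), with 1 point per array, tumours in red left of controls in blue, and bars at group means. All 3 tumours lie below both controls for 8 genes and above both for Sqle.

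Levels are deposited log2 values, on which a difference of 1 is a doubling, and the level of one gene is not set against that of another because probe sets differ in brightness. All 45 values of the 9 genes lay above the median of their array. In 8 of the 9 genes all tumours were below both controls, as in 23.1% of all genes, and in 1 they were above both, as in 21.1% of all genes. Changes are tumour minus control differences from limma, fitted over all genes, with 95% confidence intervals and n = 3 tumours and 2 controls. In whole tissue, fewer cells of a type and less RNA per cell cannot be told apart.

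Sqle encodes squalene epoxidase, which adds the oxygen that later becomes the sterol hydroxyl group and is one of the control points of the pathway. Its log2 values were 9.90, 9.83 and 10.39 in tumours 1, 2 and 3, against 9.81 and 9.29 in controls 1 and 2. Every tumour lay above both controls, but tumour 2 exceeded control 1 only narrowly. The change of 0.49 did not pass the test (interval −0.10 to 1.08, limma adjusted p = 0.281). Lss encodes lanosterol synthase, which closes the ring system. It had log2 values of 7.86, 7.49 and 7.71 in the tumours, against 8.47 and 8.17 in the controls. The groups did not overlap, and the change of −0.63 missed the threshold (interval −1.04 to −0.22, adjusted p = 0.0712), passing it after a shift of every array to the same median (0.038).

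Cyp51 encodes the cytochrome P450 that removes a methyl group from lanosterol. Its values were 8.69, 8.33 and 8.24 in the tumours, against 9.84 and 9.45 in the controls, and it fell by 1.22 (SE 0.20, adjusted p = 0.0181). Tm7sf2 encodes a sterol reductase that acts on the double bond left by Cyp51. It had values of 8.12, 7.90 and 7.73 in the tumours, against 10.36 and 10.10 in the controls. The lowest control therefore stood well above the highest tumour, and the gene fell by 2.31 (interval −2.73 to −1.90, adjusted p = 0.00222), a 4.97-fold difference. Lbr, the lamin B receptor, catalyses the same reduction from the nuclear envelope. Its values were 7.65, 7.57 and 8.12 in the tumours, against 7.86 and 7.90 in the controls. For Lbr the groups overlapped and the change was −0.10 (interval −0.57 to 0.37, adjusted p = 0.813).

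The next enzymes strip a pair of methyl groups next to the hydroxyl group. Msmo1, the methyl oxidase of this step and not one of the 9, had values of 11.12, 10.71 and 10.48 in the tumours, against 12.15 in each control, and fell by 1.38 (adjusted p = 0.0144). Nsdhl encodes the dehydrogenase that removes the oxidised carbon. Its values were 8.81, 8.69 and 8.23 in the tumours, against 10.31 and 10.15 in the controls, and it fell by 1.65 (interval −2.15 to −1.16, adjusted p = 0.00843). Hsd17b7 encodes the ketosteroid reductase that completes the step. It had values of 8.42, 8.55 and 8.56 in the tumours, against 9.46 and 9.14 in the controls. Its tumours lay within 0.14 log2 units of each other, the narrowest tumour range of the 9 genes. Hsd17b7 fell by 0.79 (interval −1.14 to −0.43, adjusted p = 0.0259). It lost its call without either control or without tumour 1 or 2 (adjusted p from 0.0552 to 0.197).

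Ebp encodes the sterol isomerase that moves the ring double bond, and its product also binds the drug emopamil. Its values were 8.12, 7.45 and 7.86 in the tumours, against 10.31 and 10.25 in the controls. Ebp had the largest fitted fall of the 9 genes, with a log2 change of −2.47 (interval −2.99 to −1.95, adjusted p = 0.00326), a 5.54-fold difference. In tumour 3, however, Tm7sf2 lay further below its control mean (−2.51) than Ebp did (−2.42). Ebp also had the widest range among tumours, 0.67, against 0.07 between controls. Without control 1 or control 2 the adjusted p was 0.0637 and 0.0677. Sc5d encodes the desaturase that makes the precursor of vitamin D and cholesterol. Its values were 11.22, 11.40 and 11.21 in the tumours, against 11.87 in each control. The groups were separate but the difference was small, −0.59 (interval −0.90 to −0.28, adjusted p = 0.0394). The call was lost when quantile normalisation was repeated (0.0634) and without tumour 1, tumour 2 or either control (0.0616 to 0.244).

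Dhcr7 encodes the reductase of the last double bond, whose human counterpart is mutated in Smith-Lemli-Opitz syndrome. It had values of 8.37, 7.88 and 7.73 in the tumours, against 9.38 in each control. Dhcr7 fell by 1.39 (interval −1.90 to −0.88, adjusted p = 0.0147), and its values ran over 0.63 log2 units among tumours. The genes on either side of Sc5d, Ebp and Dhcr7, had larger fitted falls, which the comparison of successive genes takes up.

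**Figure D2:**
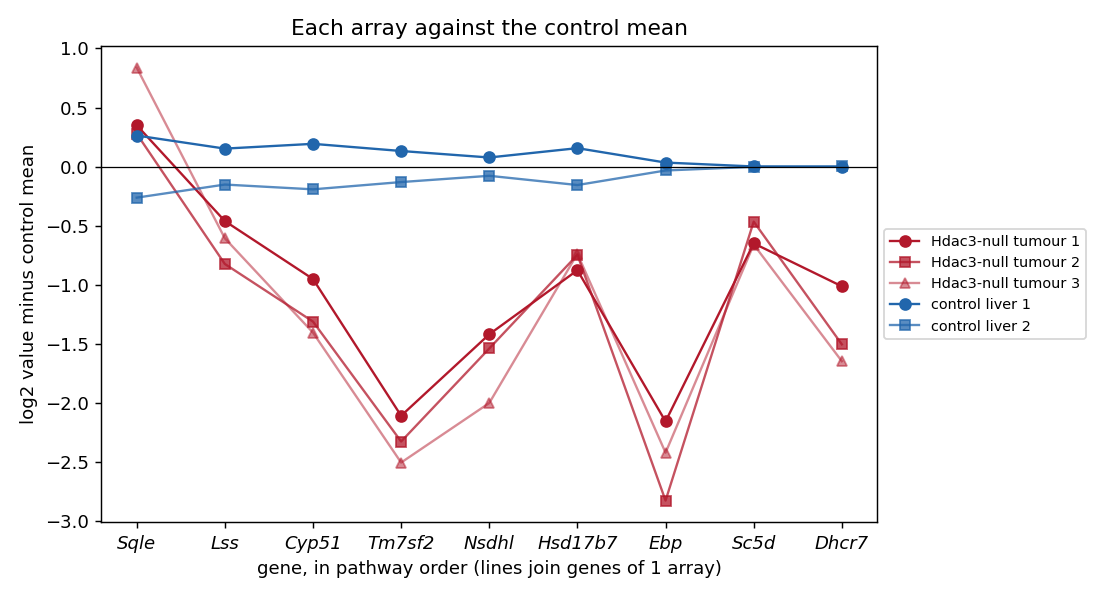
Log2 value of each array minus the mean of the 2 controls (vertical axis) for the 9 genes in pathway order (horizontal axis), with 1 line per array. The 3 tumours follow nearly the same zigzag, lowest at Tm7sf2 and Ebp and closest to the controls, apart from Sqle, at Hsd17b7, Lss and Sc5d.

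The shape of the profile was shared by the tumours. Against the control mean, the median over the 9 genes was −0.95 in tumour 1, −1.31 in tumour 2 and −1.41 in tumour 3, while over all genes it lay between −0.04 and 0.03. In each tumour 8 of the 9 genes were below the control mean, the exception being Sqle. Tumour 3 held the lowest tumour value for 5 genes, tumour 2 for 3 and tumour 1 for 1. Tumour 3 was also the tumour with the highest Sqle, 0.84 above the control mean.

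Successive genes of the chosen set were compared within each array, as the log2 value of a gene minus that of the chosen gene before it. These differences are given relative to their control mean, so that the brightness of the probe sets drops out. The largest break lay between Ebp and Sc5d, where Sc5d minus Ebp was higher by 1.51, 2.36 and 1.76 in tumours 1, 2 and 3, with the controls within 0.03 of their mean. The next largest was at Ebp minus Hsd17b7, at −1.28, −2.08 and −1.68 in the tumours, with the controls within 0.12 of their mean. Ebp thus stood below the genes before and after it in every tumour. Lss minus Sqle was lower by 0.81, 1.10 and 1.45 in the tumours, with both controls at most 0.11 from their mean, so this separation was present in each tumour. Tm7sf2 minus Cyp51 was at −1.16, −1.02 and −1.10 in the tumours, the most even of the breaks.

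The other 4 breaks were smaller. Their mean tumour minus control differences were −0.59 for Cyp51 minus Lss and 0.66 for Nsdhl minus Tm7sf2. They were 0.87 for Hsd17b7 minus Nsdhl and −0.80 for Dhcr7 minus Sc5d. In tumours 1, 2 and 3, Cyp51 minus Lss was at −0.49, −0.49 and −0.80 and Nsdhl minus Tm7sf2 at 0.69, 0.79 and 0.50. Hsd17b7 minus Nsdhl was at 0.54, 0.79 and 1.26 in the same order, and Dhcr7 minus Sc5d at −0.36, −1.04 and −0.99. Nsdhl minus Tm7sf2 passes over Msmo1, which acts between them and is outside the chosen set. The fitted change of Msmo1 (−1.38) was smaller in size than those of Tm7sf2 (−2.31) and Nsdhl (−1.65). Differences with Msmo1 were not computed within arrays, so the 0.66 does not describe neighbouring steps of the pathway. For all 8 pairs the tumours lay on one side of both controls, 5 below and 3 above. The share among other gene pairs was not computed, and each pair shares a gene with the next. Of single genes, 23.1% had all tumours below both controls and 21.1% above both. An exact permutation test (two-sided) of 3 arrays against 2 cannot go below p = 0.1, which 7 of the 8 pairs reached, with p = 0.114 after adjustment over the 8, while Dhcr7 minus Sc5d had p = 0.2. With this test no pair can pass a threshold of 0.05. The breaks are described by their values in each array, as unequal changes of the measured signal.

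**Figure D3:**
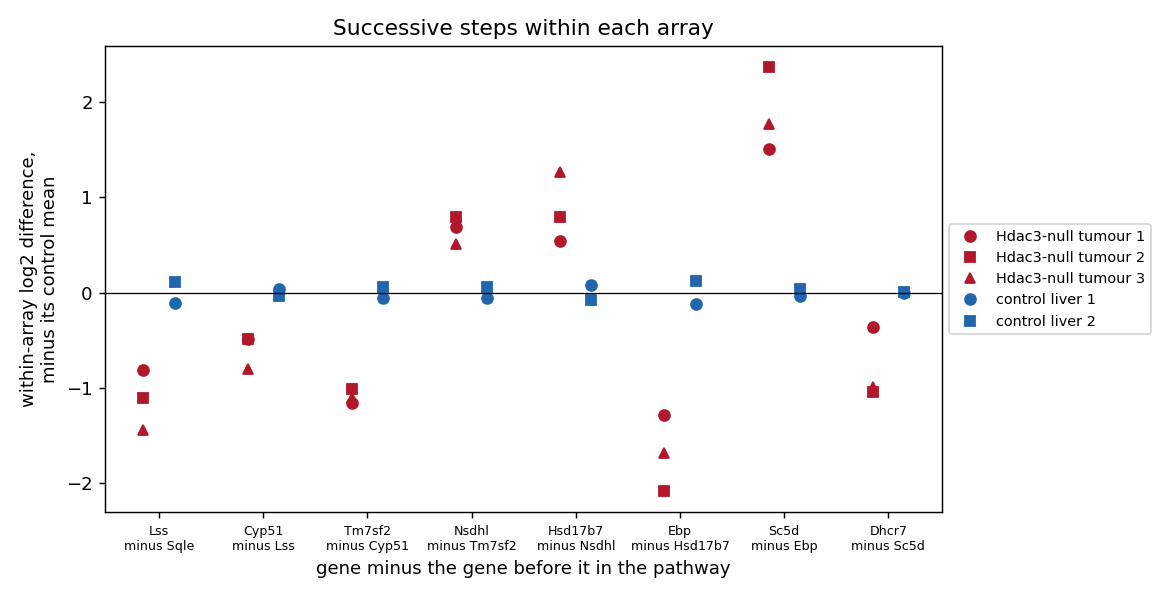
Within-array log2 difference between a gene and the chosen gene before it in the pathway, minus the control mean of that difference (vertical axis). The 8 pairs of successive chosen genes are on the horizontal axis. Each array is 1 point, with tumours in red left of controls in blue. Nsdhl minus Tm7sf2 passes over Msmo1. No pair overlaps, and the widest separations are at Sc5d minus Ebp and Ebp minus Hsd17b7.

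Promoter sequences were read for the 9 genes because most of them fell together. Windows of 250 bases before an annotated start were available from RefSeq (GRCm38.p6) for 8 genes, with 3 starts for Dhcr7. Sqle was not matched. The motifs searched on both strands were the CCAAT box bound by NF-Y, the GC box GGGCGG bound by Sp1, and TCACNCCAC, a form of the sterol regulatory element. These motifs do not overlap one another in the sequences shown. Of the 8 genes, 8 held both CCAAT and GGGCGG in a window (8 of 10 windows, as 1 of the 3 for Dhcr7 did), against 11.1% of 32536 distinct mouse windows of that length. CCAAT alone was in 33.8% of all windows and GGGCGG in 33.0%. The windows compared were not matched to these genes for expression level or base composition. The 11.1% is therefore not a share among similar genes. Whether the motifs are particular to the genes that fell was not tested. TCACNCCAC was in 0 of the 8 genes' windows and in 1.05% of all windows. Only exact matches were taken, so sterol regulatory elements with other letters would be missed. The windows of the 2 largest and the 2 smallest negative changes are shown, 5′ to 3′ on the gene's strand and ending at the base before the start, with CCAAT and GGGCGG on either strand in capitals (reverse matches read ATTGG and CCGCCC).
Ebp, chrX:8193513-8193762, minus strand: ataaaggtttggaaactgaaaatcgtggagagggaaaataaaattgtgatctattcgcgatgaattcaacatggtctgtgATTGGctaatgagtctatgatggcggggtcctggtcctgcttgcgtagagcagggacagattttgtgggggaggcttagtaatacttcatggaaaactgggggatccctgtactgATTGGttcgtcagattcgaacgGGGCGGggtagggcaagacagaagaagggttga
Tm7sf2, chr19:6067851-6068100, minus strand: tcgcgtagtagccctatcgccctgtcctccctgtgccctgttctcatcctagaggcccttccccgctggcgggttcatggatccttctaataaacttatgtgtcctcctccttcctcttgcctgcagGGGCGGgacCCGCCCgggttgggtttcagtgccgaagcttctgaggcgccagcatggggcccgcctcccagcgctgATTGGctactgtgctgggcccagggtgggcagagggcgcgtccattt
Sc5d, chr9:42264301-42264550, minus strand: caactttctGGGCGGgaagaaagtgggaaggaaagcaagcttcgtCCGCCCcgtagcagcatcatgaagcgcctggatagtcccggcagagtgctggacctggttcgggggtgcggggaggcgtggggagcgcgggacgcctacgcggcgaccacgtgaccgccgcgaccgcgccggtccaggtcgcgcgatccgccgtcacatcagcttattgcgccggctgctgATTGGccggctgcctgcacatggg
Lss, chr10:76531355-76531604, plus strand: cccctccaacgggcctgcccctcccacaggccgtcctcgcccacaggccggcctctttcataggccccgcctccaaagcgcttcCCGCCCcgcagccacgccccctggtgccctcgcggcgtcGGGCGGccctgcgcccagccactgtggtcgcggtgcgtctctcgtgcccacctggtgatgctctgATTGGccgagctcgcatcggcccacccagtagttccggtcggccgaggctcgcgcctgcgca

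The nearest CCAAT match began 55 bases before the start in Ebp, 47 in Tm7sf2, 24 in Sc5d and 62 in Lss, each on the reverse strand. All 4 windows held both motifs, so the presence of the motifs did not separate Ebp and Tm7sf2 from Sc5d and Lss. A match is a description of the letters and does not show binding.

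The enzymes upstream of squalene were set beside them as the rest of the same pathway. Of 7 measured, 3 fell, 0 rose and 4 did not pass, with a median log2 change of −0.76. Idi1, which isomerises the isoprene unit, fell by 2.10 (adjusted p = 0.026), with values of 9.17, 9.28 and 8.08 in the tumours, against 11.17 and 10.71 in the controls. The phosphomevalonate kinase gene Pmvk fell by 1.24 and the mevalonate kinase gene Mvk by 0.76. Fdft1, squalene synthase, stands just before Sqle and had a change of −0.96 that did not pass (adjusted p = 0.158). Its tumour values of 10.28, 9.77 and 9.04 were all below the control values of 10.76 and 10.54. Fdps, which makes the farnesyl unit, stood at 0.39 (adjusted p = 0.264), with every tumour above both controls as for Sqle. Hmgcs1 and Mvd overlapped between groups, at −0.24 and −0.05. Both probe sets of Idi1 (−2.10 and −2.11) and of Fdft1 (−0.96 and −1.20) gave the same direction. Whether the late enzymes changed more than the early ones was not tested.

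**Figure D4:**
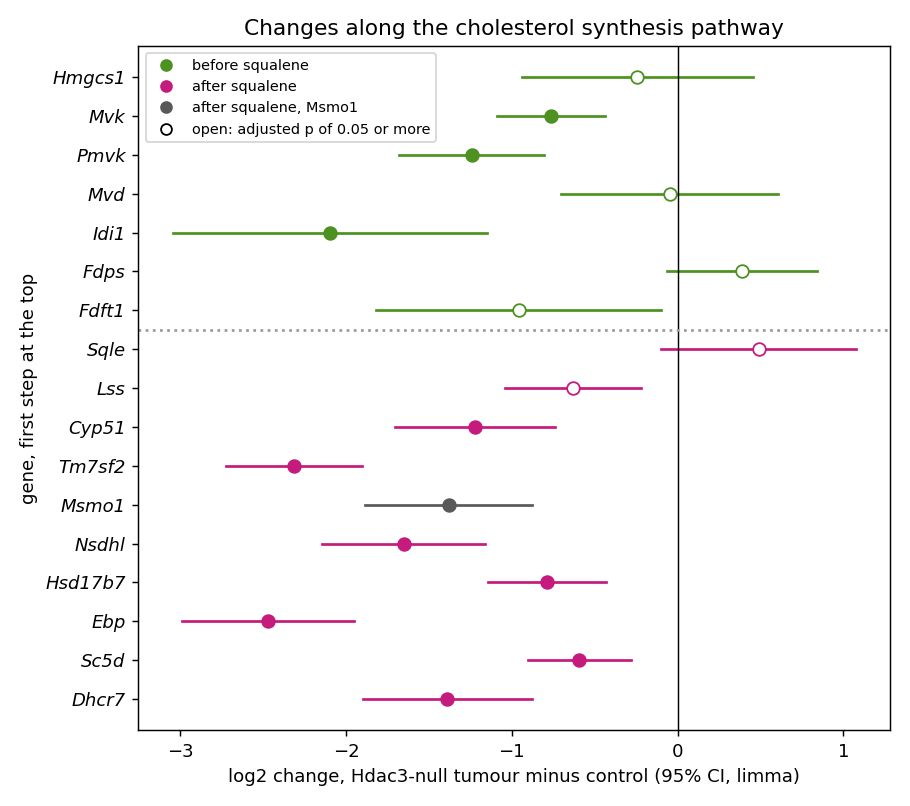
Log2 change, tumour minus control (horizontal axis, points with 95% confidence intervals from limma), for the enzymes before and after squalene from the first step at the top to the last at the bottom (vertical axis). Filled points passed an adjusted p of 0.05. Every gene from Cyp51 down passed, and Sqle and Fdps are the only points right of 0.

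The regulators of the pathway fell in part. Of 6 measured genes of SREBP processing, 3 fell and 0 rose, while 4.96% of all genes were called fallen. In 5 of the 6 all tumours lay below both controls, as in 23.1% of all genes. Among them Mbtps1 was at −0.39 without passing (limma, unadjusted p = 0.0205, adjusted p = 0.115). Scap, the escort protein of SREBP, fell by 1.08 (adjusted p = 0.00618), with values of 8.45, 8.35 and 8.45 in the tumours, against 9.56 and 9.44 in the controls. Insig1, which retains Scap and is itself an SREBP target, fell by 1.12, and Srebf1, which encodes the SREBP form best known for fatty acid genes, by 1.05. Srebf2, the gene of SREBP2, was at −0.19 (interval −0.55 to 0.17, adjusted p = 0.501). Insig2 stood at 0.998 without passing (adjusted p = 0.201). Of 3 measured SREBP2 targets outside synthesis, the sterol carrier Stard4 fell by 1.07, while Tmem97 (0.29) and Npc1l1 (−0.12) did not pass. Of 5 measured genes that act in the degradation of sterol enzymes, 0 passed in limma, with 3 at an unadjusted p under 0.05, and Marchf6, which marks squalene epoxidase for degradation, was at −0.35 (unadjusted p = 0.0289, adjusted p = 0.141).

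Electron carriers of the cytochrome systems fell in part. Cyb5a, the cytochrome b5 that feeds the desaturase Sc5d, fell by 0.56 (adjusted p = 0.0446) and Cyb5b, its relative of the mitochondrial outer membrane, by 0.75 (adjusted p = 0.0456). The reductase gene Cyb5r3 (0.18) and the P450 partner Pgrmc1 (0.02) did not pass, so 2 of 4 measured carriers fell.

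Of 6 genes of sterol catabolism 2 fell, the hydroxylase genes Cyp8b1 (log2 change −4.91) and Cyp7b1 (−3.47). Cyp7a1, the first enzyme of classical bile acid synthesis, was at −3.67 without passing (adjusted p = 0.062), with tumour 2 at 4.57 and tumours 1 and 3 at 7.60 and 7.45, against 9.81 and 10.61 in the controls. Among 6 measured genes of LXR and cholesterol efflux, Abcg1 rose by 1.68 and Nr1h3, which encodes LXR alpha, fell by 0.93. Abcg5 and Abcg8, which together form the sterol exporter of the bile canaliculus, stood at −1.57 and −2.08 without passing (adjusted p = 0.083 and 0.0674), with all tumours below both controls. Among 5 genes of cholesterol uptake and esterification, Npc2, a lysosomal cholesterol carrier, rose by 0.80 and Lcat, which esterifies plasma cholesterol, fell by 1.69.

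Relatives of the 9 enzymes gave both outcomes. Ebpl, the sequence relative of Ebp, had values of 8.64, 8.20 and 7.89 in the tumours, against 10.59 and 10.37 in the controls, and fell by 2.23 (adjusted p = 0.00534). Hsd17b11 fell by 1.85 (adjusted p = 0.0187). Hsd17b12 stood at −0.17 (adjusted p = 0.541). The genes outside these lists whose 5 array values, centred on their own control mean, lay closest to the median profile of the 9 enzymes were Grb7, Tcp11l2, 1810046K07Rik, Prkd3 and Sat2. Their root mean square distances to that profile were 0.06 to 0.11 log2 units over 5 arrays, among 9835 genes whose mean log2 value was 6 or more.

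Without control 1 or control 2, Cyp7b1 alone kept its call among the 18 called genes of the pathway lists other than the 9 enzymes (highest adjusted p 0.26 and 0.295). Without tumour 2, Mvk, Cyb5a, Cyb5b, Nr1h3, Lcat and Hsd17b11 lost theirs (0.0531 to 0.112), and Cyb5a was also lost without tumour 1 or 3 and Cyb5b without tumour 1 (0.052 to 0.0645).

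Hdac3 had values of 6.78, 6.57 and 6.65 in the tumours, against 8.21 and 8.37 in the controls, a change of −1.62 (adjusted p = 0.00298). Where its probes lie relative to the deleted part was not analysed here. Of 6 measured hepatocyte markers, Ttr fell by 0.71 and 5 did not pass, Alb being at −0.12. Their summed level, as log2, was 14.76 to 14.99 in the tumours and 15.09 to 15.13 in the controls. Of 10 macrophage markers 5 rose and 1 fell, with a summed level of 11.43 to 12.37 in the tumours and 9.97 to 10.46 in the controls. Cholangiocyte markers stood at 8.28 to 9.28 in the tumours against 7.54 to 7.58 in the controls (0 of 5 passed in limma, 3 at an unadjusted p under 0.05). Lymphocyte markers were at 9.28 to 10.66 against 7.96 to 8.03 (1 of 7 rose). The gene that rose was Ptprc (log2 change 2.52, limma adjusted p = 0.0117), which is expressed by leukocytes in general, macrophages included. The call and the summed level are therefore not particular to lymphocytes. Stellate and fibroblast markers were at 9.72 to 10.97 against 9.20 to 9.30 (1 of 7 rose). Endothelial markers were at 9.36 to 11.23 in the tumours and 10.30 to 10.39 in the controls (0 of 6 passed in limma, 1 at an unadjusted p under 0.05). Of these lists, 2 lymphocyte markers had both group means under the lower quartile of the arrays. All 9 calls of single marker genes in these lists were lost without control 1 or control 2 (lowest adjusted p 0.0581 and 0.0658), and Ttr was also lost without tumour 1 or 2 (0.0597 and 0.0818). Their part in the falls of the 9 enzymes was not tested.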

How the data were processed

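Labelling used a whole-transcript sense kit, per the labels' protocols. The authors deposited log2 expression values, 1 for every probe set on every array. The submitters' processing notes name GCOS and RMA, without version or role. Neither genome build nor probe annotation is given in the sources used here. RMA values compress large differences and those of dim probe sets. Of 28853 probe sets, the 21789 with 1 symbol in the platform's annotation gave 19938 genes, by the probe set with the highest mean. Group differences were fitted over all of them with limma 3.58.1 (lmFit, then eBayes; R 4.3.3), without covariates (3 residual and 2.98 prior degrees of freedom), with two-sided p-values, Benjamini-Hochberg adjustment and a threshold of 0.05. Arrays of 1 group are biological replicates per their titles. Array medians ran from 5.66 to 5.77, and the number of arrays limits the precision.

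The 9 genes, the lists and the motifs were chosen with earlier results of these data known. Every measured gene of a list could be named, with Hdac3 and the 5 genes of most similar profile. Some listed genes are not reported here. The procedure was tested on simulated arrays with independent normal noise, using the spread that limma estimated for each gene. Such arrays share the assumptions of the fit and cannot test how far the results depend on the 2 controls. Alternatives were other normalisations, filters, probe set rules, spread models, thresholds and leaving out each array. Python 3.11.15, pandas 2.3.3 and matplotlib 3.10.9 joined tables and drew figures.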

Additional observations from a re-analysis of the deposited data

How the results depend on the processing

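The directions of all 9 changes and of all 8 differences between successive genes of the 9 stayed under every alternative run for them. Of 144 values of the 9 changes under alternatives, 111 kept their side of the threshold, 30 lost a call and 3 gained one (Lss). The 7 falls became 0 with an ordinary test per gene without moderation and 3 at a threshold of 0.01, and ranged from 1 to 7 with 1 array left out. The 3 falls before squalene became 0 with that ordinary test and 0 at 0.01, and ranged from 0 to 3 with 1 array left out. Calls over all genes, 2106, became 3252 with array weights, 18 with the ordinary test, 505 at a threshold of 0.01 and 3326 at 0.1, and ranged from 108 to 2719 with 1 array left out. Of all genes, 0.0602% were called fallen with the ordinary test and 1.07% at a threshold of 0.01. The share was 4.35% without tumour 1, 2.82% without tumour 2 and 6.29% without tumour 3. With 1 control left out, the remaining one is taken to have the tumours' spread. Risen genes among the 9 were 0 under every alternative (limma, with Sqle at an unadjusted p of 0.0884). With replicate number as a block, 6 of the 9 fell (Sc5d at adjusted p = 0.0781) and 2376 genes were called. Same-numbered arrays did not deviate together (correlations 0.00388 and −0.0129). With 2 controls, whose deviations mirror each other, this cannot decide whether the numbers pair the samples. The design of 2 and 3 arrays and the absence of a measured background per probe limit these values. The causes of these shifts were not tested. Leaving out an array also lowers the number of arrays.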
